A study of Mus musculus with 18 samples.

Results

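Olfm4-high stem cells with transcripts of DNA replication were 199 of the 9726 Olfm4-high cells, and of the 25204 cells passing the limits, in 4 libraries of FACS-sorted Lgr5+ cells from the mouse ileum. The series held 42869 such cells in 8 single-cell RNA libraries. A cell was chosen by its own measured counts of unique molecular identifiers (UMIs, each standing for 1 captured transcript). It had 1000 to 18000 UMIs, 200 to 4000 genes and under 5% mitochondrial UMIs. Olfm4 made up at least 0.2% of its UMIs, Mcm3, Mcm5, Mcm6, Hells, Ung and Dtl together gave at least 8 UMIs, and the mitosis genes Ube2c, Cenpf, Top2a, Prc1, Nusap1, Aurka, Cdc20 and Ccnb2 gave at most 2. The levels of these 15 genes in the selected cells are therefore a description of the choice, and DNA content was not measured. These cells are called replicating Olfm4-high cells here.

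The Lgr5+WT mice carried the Lgr5-GFP-CreERT2 knock-in, and the Lgr5+Setdb1KO mice carried the same allele with Setdb1 lox/lox. All mice were males on the C57Bl6 background, 60 to 65 days old, and all received 70 mg/kg tamoxifen and were analyzed at day 5, so the controls carried the Cre and the drug as well. Each genotype had 2 libraries of sorted GFP+ cells, and p-values measure the spread between these libraries. Cre was driven by the Lgr5 locus, from the allele whose GFP was used for the sort, and recombination of Setdb1 in single cells was not measured here. A further 4 libraries came from mice with the nTnG reporter, which labels the progeny of Lgr5+ cells.

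In crypt base stem cells, cell division is continuous. Before S phase the origin recognition complex, Cdc6 and Cdt1 load the MCM helicase onto origins, and after firing the helicase travels with the polymerases and the sliding clamp Pcna. E2F factors raise the transcription of these genes at the passage from G1 to S. Olfm4 and Lgr5 mark the stem cells at the crypt base, and Setdb1 is a methyltransferase that trimethylates lysine 9 of histone H3. Crypt stem cells also carry MHC class II molecules, which show peptides to CD4+ T cells. The invariant chain Cd74 escorts the alpha and beta chains, and H2-DM exchanges the peptide.

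The sequences below come from genes on which the results turn, 4 of the replication apparatus and 2 of MHC class II, all from RefSeq on build GRCm38.p6. Capitals mark the letters TTTCGCGC or TTTGGCGC, forms of the E2F site, in the replication genes, and CTGATTGG, the Y box, in the MHC class II genes, on either strand. A Y box is the inverted CCAAT element of class II promoters. For Mcm5, Mcm6, H2-Aa and H2-Eb1 the 250 bases before the transcript start are shown. For Mcm3 and Cdt1, whose match lies after the start, 30 bases of the first exon are shown. Mcm5 is on the plus strand at chr8:75109259-75109508 and has matches on both strands that overlap, the first 153 bases before the start. Mcm6 is on the minus strand at chr1:128359706-128359955, with an overlapping pair of matches from 110 bases and another match 47 bases before the start. The stretch of Mcm3 is on the minus strand at chr1:20820263-20820292, and that of Cdt1 on the plus strand at chr8:122568035-122568064. H2-Aa is on the minus strand at chr17:34287824-34288073, with the match 51 bases before the start. H2-Eb1 is on the plus strand at chr17:34305617-34305866, with the match 62 bases before it. Cd74 and H2-Ab1 are named only.
Mcm5: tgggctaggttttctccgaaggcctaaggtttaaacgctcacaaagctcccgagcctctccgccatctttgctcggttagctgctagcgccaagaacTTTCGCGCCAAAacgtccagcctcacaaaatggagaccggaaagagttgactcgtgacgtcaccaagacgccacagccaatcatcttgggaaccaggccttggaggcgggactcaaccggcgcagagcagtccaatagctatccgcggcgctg
Mcm6: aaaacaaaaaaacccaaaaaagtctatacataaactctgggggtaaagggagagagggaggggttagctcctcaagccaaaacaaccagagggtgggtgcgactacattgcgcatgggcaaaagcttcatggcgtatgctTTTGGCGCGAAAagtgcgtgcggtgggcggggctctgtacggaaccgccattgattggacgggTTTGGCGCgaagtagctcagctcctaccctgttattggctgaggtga
Mcm3: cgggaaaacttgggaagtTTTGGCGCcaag
Cdt1: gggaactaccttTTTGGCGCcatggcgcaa
H2-Aa: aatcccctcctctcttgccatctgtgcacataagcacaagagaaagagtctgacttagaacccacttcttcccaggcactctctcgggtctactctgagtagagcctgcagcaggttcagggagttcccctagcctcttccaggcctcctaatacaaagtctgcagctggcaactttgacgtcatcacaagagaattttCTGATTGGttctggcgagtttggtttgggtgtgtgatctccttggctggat
H2-Eb1: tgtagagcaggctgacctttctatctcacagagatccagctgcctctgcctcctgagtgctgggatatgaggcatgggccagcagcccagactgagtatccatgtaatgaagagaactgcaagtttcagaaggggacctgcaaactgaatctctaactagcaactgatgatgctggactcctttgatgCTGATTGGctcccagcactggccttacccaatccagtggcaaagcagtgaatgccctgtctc

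The E2F letters stood in the 300-base promoters of Mcm3, Mcm5, Mcm6 and Dtl, so in 4 of the 6 replication genes of the rule, and in none of its 8 mitosis genes. In RefSeq they stood in 0.813% of 32851 promoters and in 0.929% of 27025 genes. Across 4 lists of replication genes (the rule, licensing, firing and replisome, polymerases and clamp), 12 of the 44 genes with a promoter in the table held them, among them Orc1, Mcm7, Clspn, Lig1 and Pola1. In the other lists of replication the E2F letters stood in 0 of 11 nucleotide supply, 0 of 14 fork repair, 3 of 17 G1/S and 3 of 17 chromatin genes. The Y box letters stood in 4.70% of all genes and in 2 of the 4 MHC class II genes with a promoter. They also stood in 8 of the 44 replication genes. A match is a description of letters, not a bound site or a cause.

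The libraries held 50722926 to 81876035 UMIs over all barcodes, and the replicating Olfm4-high cells had summed totals of 603247 (WT library 1), 279816 (WT library 2), 769194 (KO library 1) and 195796 UMIs (KO library 2). They numbered 66, 32, 72 and 29 in the same order. Their median depth was 8722, 7867, 11233 and 6104 UMIs, so KO library 1 was the deepest and KO library 2 the shallowest. No barcode of a selected cell was shared between 2 Lgr5+ libraries as a selected cell, and pairs of these libraries shared 3 to 24 barcodes of cells passing the limits. A doublet caller (Scrublet) marked 5 of the 199 cells, 2 in WT library 1 and 3 in KO library 2.

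The thresholds cut through a continuum. With the other limits met, 111 cells had 7 UMIs of the replication genes, just outside, and 71 had 8, just inside. Of the mitosis genes, 59 selected cells had 2 UMIs, and 46 cells just outside had 3. Olfm4 was between 0.2% and 0.25% of UMIs in 17 selected cells, and between 0.15% and 0.2% in 17 cells that were otherwise the same.

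Setdb1 itself was thinly covered. Its UMIs in the selected cells were 7 and 4 in WT and 5 and 3 in KO, too few to be tested. As UMIs per 1000000 UMIs (CPM), these were 11.6 and 14.3 in WT and 6.5 and 15.3 in KO. The genotypes thus overlapped in the selected cells, with KO library 2 the highest. Over all Lgr5+ cells passing the limits Setdb1 stood at 11.3 and 9.93 CPM in WT and 5.27 and 6.21 CPM in KO. It fell by 0.85 ± 0.15 (SE) on the log2 scale there (adjusted p = 0.0459, edgeR quasi-likelihood test, n = 2 libraries a group). The sequenced 3′ tags lie outside the deleted part of the gene, so this level checks the deletion only in part.

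Of the markers given for these cells, Cdt1 was not part of the rule. Cdt1, the licensing factor, stood at 66.3, 78.6, 75.4 and 61.3 CPM in WT libraries 1 and 2 and KO libraries 1 and 2. In resting Olfm4-high cells (at most 2 UMIs of each gene set of the rule, 3961 cells) Cdt1 stood at 37.3, 27.7, 30.2 and 35.7 CPM. In dividing Olfm4-high cells (at least 8 UMIs of the mitosis genes, 2654 cells) it stood at 26.6, 22.7, 25.1 and 20.1 CPM. Cdt1 was thus higher in the replicating cells of every library than in either population of any library. The resting cells, held to a low fixed count of UMIs, were shallower than the selected cells of each library. Their median depths were 5259, 4396, 6399 and 3365 UMIs, and the part of depth in comparisons with them was not tested. Lgr5 was present in all 4 libraries, at 23.2, 25.02, 27.3 and 10.2 CPM. The selected cells held 14, 7, 21 and 2 Lgr5 UMIs, in 12 of 66, 5 of 32, 16 of 72 and 2 of 29 cells. In resting cells of the same library Lgr5 stood higher, at 68.7, 35.0, 49.7 and 30.0 CPM. All comparisons between populations of cells are descriptions without a test, because the counts that define the populations are part of the same cells.

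The licensing genes outside the rule formed a group. Of 13 listed, 11 had a mean of at least 10 CPM, and 8 of these were higher than in resting cells in 4 of 4 libraries, with a median log2 ratio of 0.94. Over all 6490 genes at that level, 21.6% were higher in 4 of 4 libraries and 9.11% lower, and the median log2 ratio was 0.07. The ratios were taken after adding 10 CPM, which understates low genes. Mcm2, a subunit of the helicase, stood at 66.3, 64.3, 61.1 and 97.0 CPM in replicating cells and at 37.3, 28.4, 27.5 and 33.6 CPM in resting cells. Mcm4, another subunit, stood at 79.6, 35.7, 97.5 and 112 CPM, with WT library 2 the lowest. Gmnn, the inhibitor of Cdt1, stood at 217, 204, 187 and 158 CPM against 71.1, 74.2, 68.1 and 87.9 CPM in resting cells. In dividing cells Gmnn was at 173, 155, 198 and 169 CPM, a range that overlapped that of the replicating cells, as Cdt1 and Mcm2 did not. Cdc6, the loading factor, named here after its values were seen, stood at 36.5, 21.4, 29.9 and 20.4 CPM and at 3.24 to 5.74 CPM in resting cells.

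Genes that act at the fork were higher than in resting cells almost without exception. All 21 genes of the polymerases and clamp list were above the resting level in 4 of 4 libraries, with a median log2 ratio of 0.89, and so were 10 of 11 measured genes of origin firing and the replisome. Pcna stood at 250.3, 236, 242 and 266 CPM, a narrow range, against 93.9, 84.7, 75.6 and 96.4 CPM in resting and 120.2, 117, 147 and 88.7 CPM in dividing cells. Lig1, which joins Okazaki fragments, stood at 136, 193, 151 and 219.6 CPM against 56.9, 61.7, 42.1 and 73.9 CPM in resting cells. Of the nucleotide supply genes 11 of 12 were higher than in resting cells. Dut, which clears dUTP, stood at 349.8, 365, 329 and 424 CPM, and Tyms, which makes dTMP, at 189, 247, 177 and 112 CPM. Of the replication-coupled chromatin genes other than Hells, a gene of the rule, 16 of 17 were higher, among them the histone chaperone Nasp at 207, 168, 216 and 148 CPM. Of the fork repair and checkpoint genes other than Ung, also a gene of the rule, 10 of 12 were higher. These counts are against resting cells, chosen for few UMIs of the rule's replication genes. Against dividing cells 12 of 21 polymerase and clamp genes and 4 of 11 replisome genes were higher in 4 of 4 libraries. So were 5 of 12 nucleotide supply, 8 of 17 chromatin and 4 of 12 fork repair genes, and 13.9% of all genes. Lower were 0, 1, 1, 3 and 0 genes. Against replicating cells with Olfm4 under 0.2%, 3 of the 21 were higher and 2 lower, where 12.2% and 12.5% of all genes were.

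Of the regulators of the G1/S passage, 14 of 19 measured genes were higher than in resting cells in 4 of 4 libraries and 0 were lower. Ccne1 (cyclin E1), E2f1 and Cdkn1a (the inhibitor p21) were named after their values were seen. Ccne1 stood at 23.2, 46.5, 35.1 and 30.6 CPM and in resting cells at 4.83, 5.61, 3.78 and 8.36 CPM. E2f1 stood at 33.2, 25.02, 39.0 and 30.6 CPM and in resting cells at 3.78 to 13.9 CPM. Cdkn1a, too low to be among the 19, was nearly absent, at 1.66, 0, 5.20 and 0 CPM, and stood at 8.34 to 16.1 CPM in resting cells. Of 6 measured p53 targets 0 were higher than in resting cells in 4 of 4 libraries, a count too small to set against the 21.6% of all genes.

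**Figure D1:**
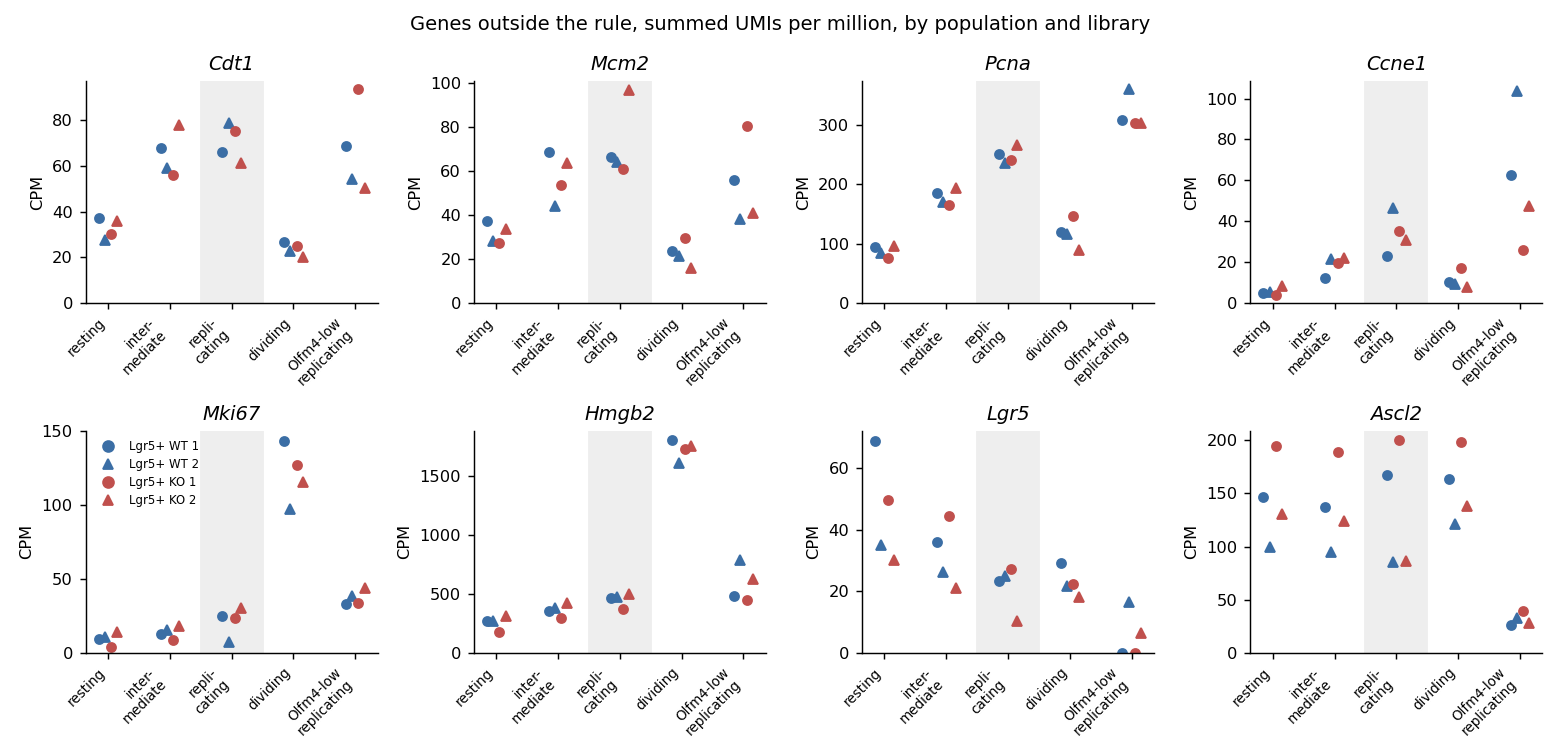
Levels of 8 genes outside the rule in CPM (vertical axis, linear from 0) in 5 populations of the same 4 Lgr5+ libraries, blue for WT and red for KO, with circles for library 1 and triangles for library 2. The replicating Olfm4-high cells are shaded, and Cdt1 stands there at 61.3 to 78.6 CPM, above all resting and dividing values, while Mki67 and Hmgb2 stay far below their dividing level.

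Genes of late S phase and G2 were mostly lower in the replicating than in the dividing cells. These populations were chosen by opposite limits on mitosis genes, at most 2 and at least 8 UMIs. Of 13 measured genes of this list, 11 were higher than in resting cells and 11 were lower than in dividing cells in 4 of 4 libraries, where 12.9% of all genes were lower. Hmgb2, a chromatin protein of proliferating cells, stood at 467, 475, 369 and 501 CPM and at 1807, 1615, 1734 and 1757 CPM in dividing cells. Mki67 stood at 24.9, 7.15, 23.4 and 30.6 CPM and at 143, 97.3, 127 and 116 CPM in dividing cells. H2afz, a histone variant, stood at 1462, 1494, 1539 and 1706 CPM and at 2345 to 2942 CPM in dividing cells. The low levels of Top2a and Ube2c follow from the rule. Listed genes that vary with the mitosis genes are set apart by the same limits, so their count describes the choice. How far the limits set it was not tested.

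Of 18 measured stem cell and Wnt genes, Olfm4 left out as a gene of the rule, none was higher than in resting cells in 4 of 4 libraries and 10 were lower, where 9.11% of all genes were lower. Against Olfm4-low replicating cells (124 cells meeting the same replication and mitosis limits with Olfm4 under 0.2%), 13 of the 18 were higher, where 12.2% of all genes were higher. Ascl2, the stem cell transcription factor, named after its values were seen, stood at 167, 85.8, 200.2 and 86.8 CPM and at 26.3, 32.7, 39.0 and 28.4 CPM in the Olfm4-low cells. It overlapped its resting range, 99.1 to 194 CPM. Slc12a2, a chloride cotransporter of the crypt base, stood at 333, 293, 364 and 225 CPM against 125 to 138 CPM in the Olfm4-low cells. Gkn3 stood at 186, 164, 211 and 153 CPM against 31.6 to 49.4 CPM. Of 11 licensing genes 0 were higher and 0 lower than in the Olfm4-low cells in 4 of 4 libraries, where 12.2% of all genes were higher and 12.5% lower, so that the count is near that of all genes.

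Outside the rule, the genes most above the resting level in every library included Pclaf, a Pcna partner, Atad2, Tk1 and Smc2. Pclaf stood at 153, 361, 129 and 301 CPM against 37.3, 55.5, 9.72 and 57.2 CPM, and Tk1, thymidine kinase, at 101, 111, 91.0 and 102 CPM against 22.3, 26.5, 13.0 and 37.2 CPM. Pclaf varied more between libraries than Tk1, and neither split by genotype. The genes most below the resting level were led by Zg16, a goblet cell lectin, and by Chga, a granin of endocrine cells. Zg16 stood at 186, 136, 91.0 and 271 CPM against 1631, 690.5, 696 and 1827 CPM. Droplets with 10 to 100 UMIs, a measure of free RNA, held 7471, 5025, 5580 and 6693 CPM of Zg16, above both populations. The part of free RNA in this comparison was not tested. Chga rested on 0, 4, 21 and 2 UMIs in the selected cells, with 19 of the 21 from 1 cell. Pdgfa, a growth factor, stood at 76.3, 100.1, 42.9 and 20.4 CPM against 213, 166, 142 and 111 CPM.

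Cell by cell the population was uneven. Olfm4 ranged from 0.208% to 1.35% of UMIs in WT library 1, with a median of 0.671%, and its medians in the other libraries were 0.530% in WT library 2, 0.469% in KO library 1 and 0.398% in KO library 2. The replication genes of the rule had medians of 9, 9, 10 and 9 UMIs a cell, close to the threshold in every library. The licensing list, outside the rule, gave medians of 7.5, 6, 8 and 5 UMIs a cell and was highest in the deepest library. To compare the spread between genotypes, each cell was thinned to 4000 UMIs, and the median coefficient of variation over 816 genes was 91.3% and 88.2% in WT and 93.4% and 86.1% in KO. The groups overlapped and the difference, KO minus WT, was 0.041 percentage points (exact permutation test, two-sided, p = 1, where 2 against 2 libraries allows no p below 0.33). Without KO library 1 the difference was -3.29 and without WT library 2 it was -1.46.

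The question of whether loss of Setdb1 changed how many stem cells replicate was addressed in part, by the share of selected cells. The rule leaves out cells with more than 2 mitosis UMIs. Of 458 Olfm4-high cells with at least 8 replication UMIs, 199 were selected, and 104 had at least 8 mitosis UMIs. The median depth of these 104 was 13023 UMIs, against 10706.5 for all 458. Among Olfm4-high cells the share was 2.85% (95% exact binomial interval 2.21 to 3.61) and 1.05% (0.719 to 1.48) in the WT libraries. In the KO libraries it was 7.70% (6.07 to 9.60) and 0.846% (0.567 to 1.21). These intervals cover counting error only. The means were 1.95% ± 1.27 (SD, n = 2) in WT and 4.27% ± 4.85 in KO, the groups overlapped, and the exact permutation test gave p = 1. Without KO library 1 the difference turned from 2.32 to -1.10 percentage points. A fixed UMI threshold selects deep cells: 1 of 2384 Olfm4-high cells with under 4000 UMIs was selected, and 39 of 782 with at least 12000.

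The share was therefore also taken with depth equalized by thinning, and with thresholds scaled to depth. Every cell with at least 4000 UMIs was thinned to 4000 UMIs, and the thresholds were set to 4 and 1 UMIs. The Olfm4 limit was applied anew to the thinned counts, so the Olfm4-high cells here are not a subset of those as counted. By this limit 2131 (WT library 1), 2452 (WT library 2), 895 (KO library 1) and 1977 (KO library 2) cells were Olfm4-high. The shares were 5.77% and 4.61% in WT and 8.72% and 8.14% in KO. The groups no longer overlapped, at 5.19% ± 0.82 against 8.43% ± 0.40 (SD, n = 2), a difference of 3.24 percentage points (exact permutation test, p = 0.33, the smallest that 2 against 2 allows). With thresholds scaled to the depth of each cell, a setting chosen after seeing the data that leaves cell depth as it was, the shares were 2.63%, 1.51%, 3.32% and 4.00%, again with p = 0.33 by the exact test. Of all cells passing the limits with at least 4000 UMIs, the mean thinned shares were 2.57% in WT and 2.56% in KO (exact permutation test, p = 1). Keeping the thresholds of 8 and 2 UMIs after thinning, also chosen after seeing the data, left 21 cells, and with this denominator the mean shares were 0.0769% in WT and 0.167% in KO with no overlap (exact permutation test, p = 0.33). Olfm4-high cells themselves were 2316 of 4764 and 3047 of 6133 cells in WT, and 935 of 2889 and 3428 of 11418 in KO.

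**Figure D2:**
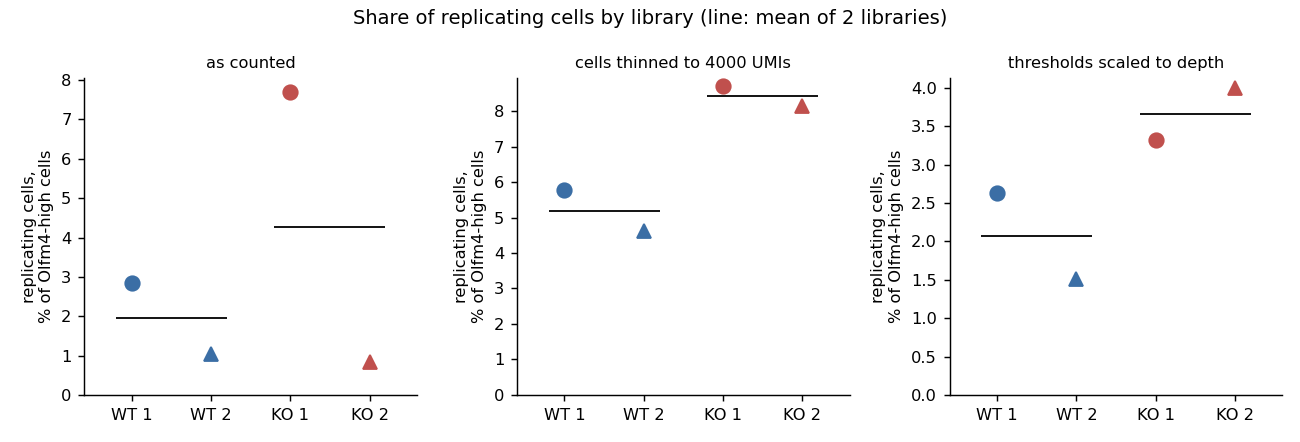
Replicating cells as a percentage of Olfm4-high cells (vertical axis, from 0) in each of the 4 Lgr5+ libraries, as counted, with cells thinned to 4000 UMIs, and with thresholds scaled to cell depth, where lines mark the mean of 2 libraries. As counted, KO library 1 at 7.70% and KO library 2 at 0.846% enclose both WT libraries, and with either of the other countings both KO points lie above both WT points.

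Between genotypes, MHC class II genes made up 5 of the 8 genes that passed the test as lower in Lgr5+Setdb1KO replicating cells. UMIs were summed over the selected cells of each library and tested over 4345 genes with edgeR (quasi-likelihood F test, p-values adjusted by Benjamini and Hochberg's method). Of these 13 passed an adjusted p of 0.05 (0.299% of the genes tested), 8 lower (0.184%) and 5 higher (0.115%) in Lgr5+Setdb1KO. The libraries of the genotypes did not overlap for all 13, and this held for 33.5% of all genes tested. At an unadjusted p under 0.05 there were 243 genes (5.59%). Leaving out 1 library, with the lone library assumed to vary like the others, gave 54 genes without WT library 1, 55 without WT library 2, 38 without KO library 1 and 42 without KO library 2. DESeq2 called 4 genes, and after thinning each cell to 4000 UMIs edgeR called 0, with 128 at an unadjusted p under 0.05 and Cd74 at -2.25 (adjusted p = 0.0554). Of the 5 MHC class II genes, 2 passed with DESeq2 (Cd74 and H2-Aa), 3 with library sizes as the scaling, 3 at a threshold of 12 replication UMIs, 1 with 0 mitosis UMIs and 0 after thinning. H2-DMa was too low to be tested in the last 3 of these settings, and H2-Aa with 0 mitosis UMIs. After thinning the log2 fold changes were -2.35 for H2-Aa, -2.24 for H2-Ab1 and -2.64 for H2-Eb1, and with 0 mitosis UMIs that of H2-Eb1 was -3.32.

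Cd74 stood at 2185 and 1437 CPM in WT and at 304 and 541 CPM in KO. It fell by 2.17 ± 0.24 (SE) on the log2 scale, 4.50-fold (adjusted p = 0.00136, edgeR). H2-Aa, the alpha chain of I-A, stood at 235 and 143 CPM in WT and 22.1 and 56.2 CPM in KO and fell by 2.69 ± 0.34 (adjusted p = 0.00368). Both WT libraries were above both KO libraries for each, with WT library 1 the highest and KO library 1 the lowest. H2-Ab1, the beta chain of I-A, stood at 333 and 164 against 36.4 and 76.6 CPM and fell by 2.45 ± 0.35 (adjusted p = 0.00532). H2-Eb1, the beta chain of I-E, stood at 290.1 and 157 against 29.9 and 86.8 CPM and fell by 2.37 ± 0.37 (adjusted p = 0.0115). The order of the 4 libraries was the same for these genes. H2-DMa, a chain of the peptide exchanger, stood at 97.8 and 46.5 against 6.5 and 25.5 CPM and fell by 2.86 ± 0.51 (adjusted p = 0.0353). H2-DMa lost the call without KO library 1 (log2 fold change -1.63, adjusted p = 0.347) and without WT library 1 (-2.03, adjusted p = 0.881), and was at -3.53 without KO library 2. Without KO library 1 the log2 fold changes were -1.83 for H2-Aa, -1.78 for H2-Ab1 and -1.45 for H2-Eb1, and without WT library 1 that of H2-Ab1 was -1.83, and these genes still passed. H2-DMb1, its partner, did not pass, at 48.1 and 46.5 against 18.2 and 20.4 CPM (log2 fold change -1.34 ± 0.40, adjusted p = 0.529). Of 7 listed MHC class II genes, 6 were tested, all 6 were lower in KO and 5 passed. The median log2 fold change of the 6 was -2.41, where that of all genes tested was -0.006. Ciita, the class II transactivator, was too low to be tested.

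Single cells varied widely within each library. The 7 MHC class II genes took a median of 0.291% of the UMIs of a cell in WT library 1, 0.105% in WT library 2, 0.00316% in KO library 1 and 0.0708% in KO library 2. The ranges overlapped widely, from 0 to 0.811% in WT library 2 and from 0 to 0.359% in KO library 2. For Cd74 the medians were 19.5, 6.5, 0 and 2 UMIs a cell, and 8, 3.5, 0 and 1 UMIs after thinning to 4000 UMIs. Free RNA moved in the same order. Summed over the list, droplets with 10 to 100 UMIs held 1071, 695, 104 and 388 CPM of MHC class II transcripts, and the selected cells held 3193, 1994, 417 and 807 CPM. The selected cells were above the droplets in every library, and the part of free RNA in the difference between genotypes was not tested.

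**Figure D3:**
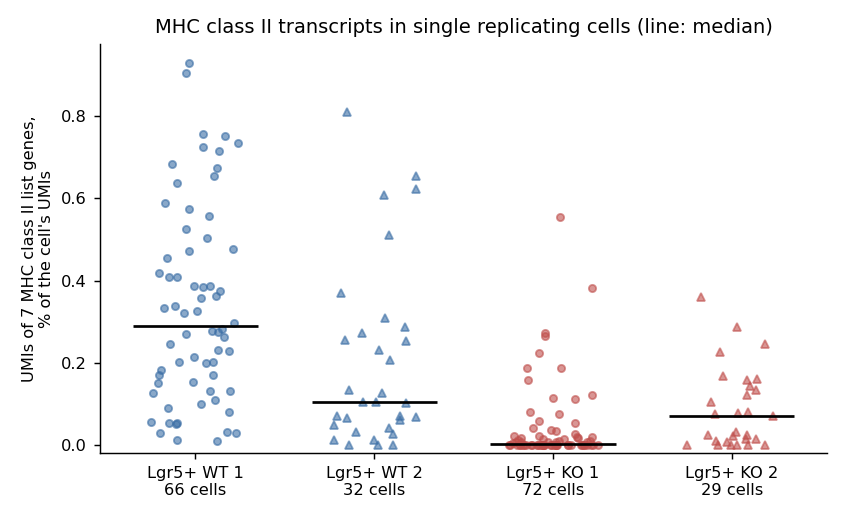
UMIs of the 7 MHC class II genes as a percentage of all UMIs of a cell (vertical axis) in each of the 199 replicating Olfm4-high cells, by library, with the median as a line. The medians are 0.291% and 0.105% in WT and 0.00316% and 0.0708% in KO, and cells with high values occur in every library.

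Among the other genes that were lower, Psmb8, a subunit of the immunoproteasome, stood at 265 and 225 CPM in WT and 117 and 123 CPM in KO and fell by 1.07 ± 0.20 (adjusted p = 0.039, edgeR). Ceacam10, a cell adhesion molecule, stood at 104 and 122 against 9.10 and 51.1 CPM and fell by 2.55 ± 0.48 (adjusted p = 0.0395). Both groups were well apart for Psmb8, and the KO libraries differed from each other for Ceacam10. Without KO library 1 Ceacam10 lost the call (log2 fold change -1.15, adjusted p = 0.379), and without KO library 2 it was at -3.57. The interferon and sensing list, which holds neither gene, gave no call in 4 tested of its 22 genes, with a median log2 fold change of -0.49. Ifitm3, an antiviral membrane protein, stood at 1320 and 1183 against 836 and 970.4 CPM (log2 fold change -0.50 ± 0.14, adjusted p = 0.422).

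Of the genes that were higher, Alad, an enzyme of heme synthesis, stood at 87.9 and 89.3 CPM in WT and 260.0 and 219.6 CPM in KO and rose by 1.45 ± 0.21 on the log2 scale (adjusted p = 0.00532, edgeR). Ly6e, a surface protein of the Ly6 family, stood at 103 and 92.9 against 294 and 245 CPM and rose by 1.46 ± 0.20 (adjusted p = 0.00532). For both genes the libraries of a genotype lay close together. Sycn, a protein of secretory granules, stood at 24.9 and 25.02 against 122 and 76.6 CPM and rose by 2.09 ± 0.33 (adjusted p = 0.0119). Sycn lost the call without KO library 1 (log2 fold change 1.57, adjusted p = 0.452). Phgr1, a transcript of intestinal epithelium, stood at 520.5 and 693 against 1102 and 1164 CPM and rose by 0.89 ± 0.17 (adjusted p = 0.0395), a call lost without WT library 1 (0.65, adjusted p = 0.0611). Alad, Ly6e and Phgr1 came from many cells, the top cell giving at most 20.8% of the UMIs of a library, which was that of Ly6e in KO library 2. Sycn had 15 and 7 UMIs in WT and 94 and 15 in KO, and 1 cell gave 4 of the 7. Ceacam10 had 63 and 34 UMIs in WT and 7 and 10 in KO, where the top cells gave 3 and 4. H2-DMa had 59 and 13 UMIs in WT and 5 in each KO library, where the top cells gave 2 each. The other 2 of the 13 genes were predicted genes.

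Free RNA split by genotype for most of these genes too. In droplets with 10 to 100 UMIs, 12 of the 13 genes had libraries that did not overlap, in the direction of the call, which held for 21.0% of all genes tested. Phgr1 stood there at 1085 and 884 CPM in WT and 1476 and 1368 CPM in KO, above the selected cells of every library. Alad stood at 72.8 and 80.9 against 169 and 148 CPM, Ly6e at 41.6 and 47.2 against 91.9 and 142 CPM, and Sycn at 10.4 and 20.2 against 58.1 and 67.8 CPM, below the selected cells in every library. Ceacam10 stood at 76.2 and 67.5 against 9.60 and 6.16 CPM, and was below the selected cells in 3 of 4 libraries. Psmb8 was the exception, at 284 and 148 against 89.4 and 154 CPM, where the genotypes overlapped. The part of free RNA in these differences was not tested.

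**Figure D4:**
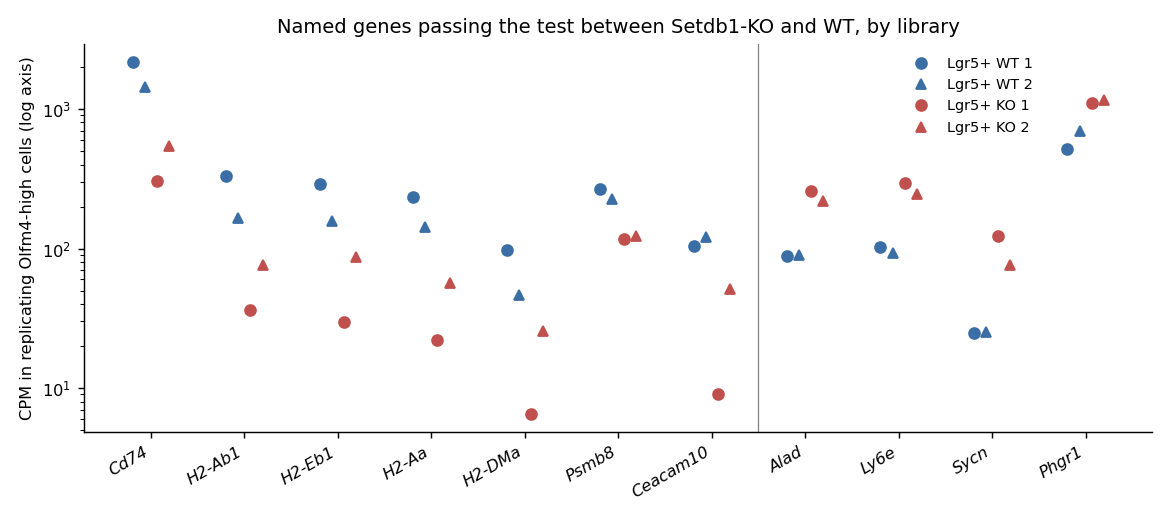
CPM in replicating Olfm4-high cells (vertical log axis) of 11 genes that passed the test between genotypes, for each of the 4 libraries, 7 lower in KO to the left of the line and 4 higher to its right. Both KO points lie on one side of both WT points for every gene, and the MHC class II genes are the lowest in KO library 1.

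Replication genes outside the rule were also tested between genotypes, where 0.299% of all genes passed, a share at which lists of this size would rarely hold a call. No gene passed among the 10 licensing, 8 firing and replisome, 19 polymerase and clamp, 11 nucleotide supply, 11 G1/S, 17 chromatin and 8 fork repair genes tested outside the rule, and the medians of these lists ran from 0.01 to 0.17. Pcna had a log2 fold change of 0.03 ± 0.18. The largest log2 fold change among the replication genes named was that of Mcm4, at 0.68 ± 0.30 (adjusted p = 0.863, edgeR). These misses do not show equal levels. Cells of both genotypes also had to reach the same count of the replication genes of the rule. Genes that vary with these were thereby held towards like levels, by an amount that was not tested. In simulated data of this depth the test found 85.2% of 4-fold and 17.2% of 2-fold changes. The simulation set the same spread between libraries for all genes, not taken from these data, so the rates for the real genes may differ. The 6 replication genes of the rule, whose sum selected the cells, are given as levels only, with Mcm3 at 177 and 182 CPM in WT and at 174 and 240.0 CPM in KO. The 5 tested genes of the H3K9 methylation machinery gave no call and a median of 0.03, with Trim28 at 66.3 and 71.5 against 92.3 and 97.0 CPM (log2 fold change 0.45 ± 0.25, adjusted p = 0.916).

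Stem cell genes other than Olfm4 gave no call among 14 tested, with a median log2 fold change of -0.11. Olfm4, on which cells were selected, stood at 6666 and 5386 CPM in WT and 4955 and 4249 CPM in KO, which is a description of the selected cells. Lgr5 had a log2 fold change of -0.05 ± 0.50. Of 4 tested p53 targets none passed, and Bax, a mediator of apoptosis, stood at 136 and 161 against 114 and 148 CPM.

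The other populations of the same libraries were tested in the same way, each over the genes that passed its own filter on low counts, 10443 in resting, 8941 in intermediate, 10584 in dividing and 3547 in Olfm4-low replicating cells. Passing an adjusted p of 0.05 were 0.402% of genes in resting, 0.559% in intermediate (3 to 7 UMIs of the replication genes and at most 2 of the mitosis genes, 1457 cells), 0.463% in dividing and 0.818% in Olfm4-low replicating cells. Cd74 fell in each, by 1.42 ± 0.24 in resting (adjusted p = 0.026, edgeR), 1.73 ± 0.21 in intermediate (adjusted p = 0.0004), 1.77 ± 0.30 in dividing (adjusted p = 0.0276) and 2.89 ± 0.20 in Olfm4-low replicating cells (adjusted p = 1.13e-07). Of the MHC class II list, 4 of 7 tested genes passed as lower in resting cells and 6 of 7 in intermediate cells. In dividing cells 4 of 7 did, and in Olfm4-low replicating cells 4 of 5. Lower calls in these populations were 0.153%, 0.313%, 0.18% and 0.423% of all genes.

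The difference of genotype effects was tested directly with each library as a block. Against resting cells, 9 of 8207 genes passed (0.11%), and 20 and 18 without WT libraries 1 and 2 and 22 and 25 without KO libraries 1 and 2. The effect on Cd74 was more negative in replicating cells, with a log2 difference of -0.66 ± 0.11 (adjusted p = 0.00135, edgeR). Without WT library 1 the difference was -0.65 and no longer passed (adjusted p = 0.095). The other 8 genes were secretory or immune genes, such as Gcg, Agr2 and Tff3. Without cells carrying at least 1% of UMIs from the goblet, Paneth or enteroendocrine lists, a setting chosen after seeing the data, Cd74 was the single gene that passed of 7936, at -0.60 (adjusted p = 0.00522). Against Olfm4-low replicating cells, 3 of 3971 genes passed (0.0755%), and 14, 24, 31 and 13 with WT library 1, WT library 2, KO library 1 or KO library 2 left out. Cd74 did not pass, at 0.70 ± 0.21 (adjusted p = 0.961), but did without KO library 1, at 0.99 (adjusted p = 0.0222).

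**Figure D5:**
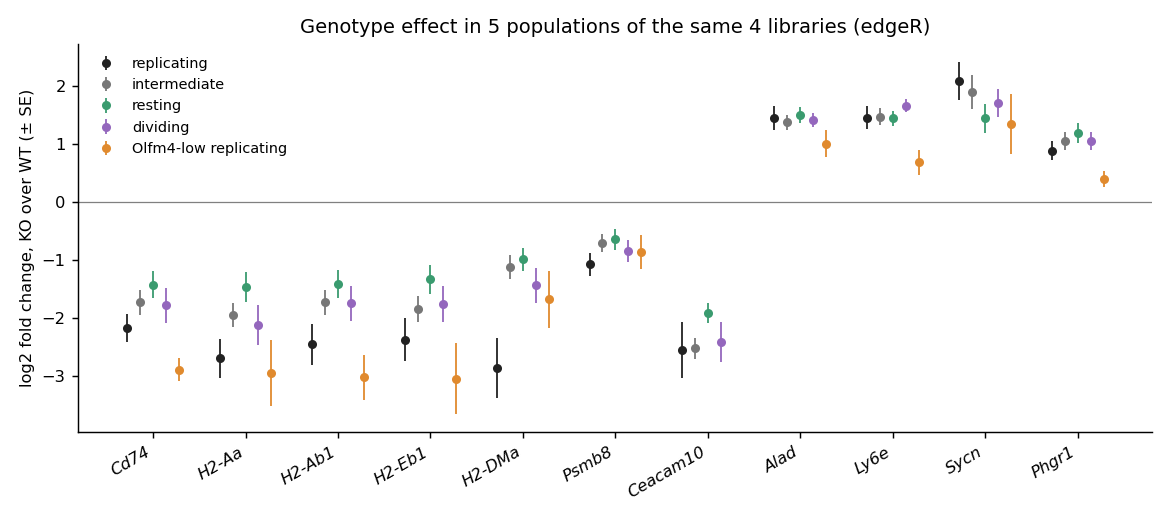
Log2 fold change, KO over WT, with its standard error (vertical axis) of 11 genes in 5 populations of the same 4 libraries, from edgeR. In the replicating cells Cd74 is at -2.17, between -1.42 in resting and -2.89 in Olfm4-low replicating cells, and Alad, Ly6e, Sycn and Phgr1 are above 0 in all populations shown. Ceacam10 was not tested in Olfm4-low replicating cells.

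Cells with markers of other types were few. Of the 199 cells, 8 (4.02%) had at least 1% of UMIs from the goblet, Paneth or enteroendocrine list, and by library the share was 3.03%, 3.12%, 4.17% and 6.90% in WT libraries 1 and 2 and KO libraries 1 and 2. In resting cells it was 8.17%, 5.53%, 8.54% and 20.8%, with KO library 2 the highest, in dividing cells 3.95%, 7.84%, 3.80% and 8.74%, and in Olfm4-low replicating cells 27.6%, 22.2%, 28.6% and 19.05%. WT libraries 1 and 2 held 2 and 1 of the 8 cells, KO libraries 1 and 2 held 3 and 2, and 3 of the 8 were marked as doublets. A cell of WT library 1 had 40.9% of its UMIs from Paneth genes, and in KO library 1 such cells had 27.3% and 17.7%. A single cell of WT library 2 gave 489 of the 491 Gcg UMIs of that library. The goblet list stood at 604 to 1079 CPM in 3 libraries and at 4954 CPM in KO library 2, where 2 goblet-marked cells lay. It gave no call in 6 tested genes, and its median log2 fold change was 1.64. The Paneth list stood at 12832, 1737, 10070.3 and 3478 CPM, highest in the libraries with Paneth-marked cells, and the enteroendocrine list at 44.8, 2834, 241 and 91.9 CPM. The enterocyte list stood at 1349 to 2134 CPM, the tuft list at 0 to 14.3 CPM with 5 of 8 genes at 0 in all libraries, and the T cell list at 0 in 3 libraries and 18.2 CPM in KO library 1. Without the 8 cells, 22 of 4192 genes passed, among them all 13, and Cd74 fell by 2.24.

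The same rule selected 0 of 1094 Olfm4-high cells in the 4 lineage-traced libraries, where these cells had median depths of 1552.5 to 1911 UMIs. The highest sum of the 6 replication genes in an Olfm4-high cell was 6, 5, 7 and 6 UMIs in traced WT libraries 1 and 2 and KO libraries 1 and 2, and the deepest such cells had 7290, 7391, 15010 and 8203 UMIs. In the same libraries 1, 1, 2 and 1 Olfm4-low cells met the replication and mitosis limits. With thresholds scaled to the depth of each cell, 15 of 336 and 2 of 73 Olfm4-high cells were selected in the traced WT libraries and 6 of 223 and 14 of 462 in the traced KO libraries. No comparison was made between these libraries.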

How the data were processed

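Cells were sorted as GFP+ from ileal crypts and profiled by droplet single-cell RNA-seq. Per the labels and the submitters' processing notes, the authors aligned reads with Cell Ranger 6.1.1 to mm10 and used Seurat 5.0.3. The deposited values were raw UMI counts per gene and barcode (32286 features, 1478384, 1610149, 1308865 and 1668706 barcodes in the Lgr5+ libraries), with no normalization and no cell calling. Bulk RNA, H3K9me3 and scATAC files of the series were not used here, since they do not resolve the selected cells.

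Barcodes were limited and selected as the report states. The members and the gene lists (21 lists) were chosen with earlier results of these data known. UMI counts were summed per library over each population, since libraries and not cells are the replicates, and tested with edgeR 4.0.16 by its quasi-likelihood F test, after filterByExpr and TMM scaling and with genotype as the single term, in R 4.3.3, with Benjamini-Hochberg adjustment over all genes tested and a threshold of 0.05. CPM are UMIs per 1000000 UMIs summed over that population. The difference of genotype effects between populations was tested with the library as a block. Shares and coefficients of variation were compared by exact permutation over the 6 splits of 4 libraries. Cells were thinned to 4000 UMIs without replacement with a fixed seed. Doublets were called by Scrublet (scanpy 1.11.5) at 0.8% per 1000 cells and kept, unless stated. Named genes were those of the rule and its markers, Setdb1, Lgr5, Mki67, Pcna, Mcm2 and Mcm4, up to 4 genes a list (passing the test first, then the highest mean CPM), and up to 10 genes in each direction with the smallest adjusted p under 0.05 and libraries that did not overlap. Predicted genes were counted only. The fits were tested on simulated data with the same set spread for all genes, in which 7 of 4124 unchanged genes were called in the comparison of replicating cells. Alternatives were DESeq2 1.42.0, other normalizations and filters, other thresholds, thinning, and each library left out.

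How strongly the 4 libraries were sequenced bears on the selection itself, because a fixed number of UMIs is reached more often in deep cells.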

Additional observations from a re-analysis of the deposited data

Results flagged for a closer look

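The genotype effect (log2, KO minus WT) in replicating Olfm4-high cells differed from that in resting Olfm4-high cells by edgeR's test of the difference for 9 genes, with replicating minus resting given for each. The difference was -6.37 for Gcg, the glucagon precursor, and -7.84 for Cck, cholecystokinin. A single cell of WT library 2 gave 489 of 491 Gcg UMIs and 191 of 192 Cck UMIs there. It was -1.55 for Defa22, a Paneth cell defensin. For genes of goblet and neighbouring secretory cells it was 2.26 for Agr2, 1.69 for Tff3, 1.56 for Spink4 and 3.00 for Guca2a. A single cell of KO library 2 gave 159 of 217 Agr2 UMIs and 55 of 72 Guca2a UMIs of that library, and a pair of its cells gave 96 and 62 of 182 Tff3 UMIs. For Ccl6, a chemokine, it was 2.82, on 3 to 24 UMIs a library. For Cd74 it was -0.66, with the top cell of a library giving 4.02% to 17.9% of its UMIs.

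Against Olfm4-low replicating cells the difference passed for 3 genes, at 3.04 for Zg16, -3.71 for Lyz1, the Paneth cell lysozyme, and 3.34 for Ccl6. Zg16 stood at 91.0 to 271 CPM in the replicating Olfm4-high cells and at 242 to 5357 CPM in the Olfm4-low cells. A single cell of WT library 1 gave 528 of 582 Lyz1 UMIs there. With the cells marked by goblet, Paneth or enteroendocrine genes left out, which was chosen after seeing the data, Cd74 against resting cells still passed (adjusted p = 0.00522, edgeR) and Agr2, Tff3, Spink4, Guca2a, Ccl6, Cck and Defa22 did not. Gcg was then too low to be tested. Against Olfm4-low cells, Zg16 and Lyz1 no longer passed, and Ccl6 was too low to be tested.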

How the results depend on the processing

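The count of 13 genes differing between genotypes depended on the settings. It was 4 with DESeq2, 7 with library sizes as the scaling, 41 without a filter on low counts, 45 at a threshold of at least 6 replication UMIs, 8 at 12, 1 with 0 mitosis UMIs, and 22 without secretory-marked cells (chosen after seeing the data). It was 0 by edgeR after thinning each cell to 4000 UMIs, where 128 genes had an unadjusted p under 0.05 and Cd74 was at -2.25 (adjusted p = 0.0554). DESeq2 was not run on thinned counts. Leaving out 1 library gave 38 to 55 genes, 18 to 25 for the difference from resting cells (9 with all libraries) and 13 to 31 for the difference from Olfm4-low replicating cells (3 with all). Leaving out secretory-marked cells gave 1 gene for the difference from resting cells. Over these settings the 13 genes kept their direction in all 238 fits that tested them, and lost the call in 52. With the replicate number as a block 27 genes passed. The numbers do not pair the libraries by any label, and deviations of same-numbered libraries correlated at r = 0.0621 over 4345 genes. The difference in share among Olfm4-high cells ran from -1.10 to 5.75 percentage points with 1 library left out, and from 0.382 to 3.64 over the other settings. Among all cells passing the limits it was 0.42, -0.0123 with thinned cells, and -0.70 to 1.54 with 1 library left out. The difference in coefficient of variation ran from -3.29 to 2.69 percentage points with 1 library left out. The causes were not tested. Fits in lineage-traced libraries, their alternatives and the genotype by experiment test were not run, since no cell met the rule there.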

Other observations

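Reg3b and Reg3g, antimicrobial lectins of the gut epithelium, varied between libraries of the same genotype in the replicating Olfm4-high cells. Reg3b stood at 69.6 and 636 CPM in WT libraries 1 and 2, and at 35.1 and 485 CPM in KO libraries 1 and 2. Reg3g stood at 51.4 and 393 CPM in WT and 46.8 and 209 CPM in KO. The spread within a genotype exceeded the distance between genotypes for both genes. Without cells marked by goblet, Paneth or enteroendocrine genes, a setting chosen after seeing the data, the genotype effect on Reg3b was 2.79 higher on the log2 scale than in Olfm4-low replicating cells (adjusted p = 2.49e-07, edgeR), and that on Reg3g was 2.93 higher (adjusted p = 7.61e-09). With all cells these differences were 2.70 (adjusted p = 0.55) and 3.22 (adjusted p = 0.115). Snhg1, a host of small nucleolar RNAs, stood at 189, 232, 238 and 235 CPM in the replicating Olfm4-high cells and at 105, 109, 259.8 and 249 CPM in the Olfm4-low cells, a difference of genotype effects of -1.62 without the marked cells (adjusted p = 0.00658) and -1.07 with all cells (adjusted p = 0.55).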
